A study of Mus musculus with 12 samples.

Results

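The vomeronasal receptor genes of types 1 and 2 were followed through 12 pools of RNA from mouse olfactory epithelium. A gene was a member if its symbol began with Vmn1r or Vmn2r and a digit, in an annotation that gave its probe 1 symbol, and where a gene had more than 1 such probe, the one with the highest mean stood for it. This gave 163 members, 117 Vmn1r and 46 Vmn2r genes, of 19937 genes in all. The mice were male C57BL/6, entrained to a cycle of light and dark and then kept in constant darkness, and their age was not analysed here. Tissue was taken every 4 h from CT12 to CT56, where circadian time (CT) 12 marks the start of the subjective night, the active phase of a mouse. Each time point was 1 pool of 4 mice on 1 array, so a pool shows no spread between animals. The subjective night was represented by the pools at CT12, CT16, CT20, CT36, CT40 and CT44, and the subjective day by those at CT24, CT28, CT32, CT48, CT52 and CT56. The second cycle comprised the pools from CT36 to CT56, and the first those from CT12 to CT32. All pools share this strain, sex and lighting, and no other treatment or genotype is labelled.

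Vomeronasal receptors are G protein-coupled receptors of the sensory neurons of the vomeronasal organ, a tube beside the nasal septum that detects pheromones, kairomones and other social cues. Type 1 receptors have a short N-terminus, act with the G protein subunit encoded by Gnai2 and are known for small molecules such as steroid sulfates. Type 2 receptors carry a large extracellular domain, act with the subunit encoded by Gnao1 and are known for peptides and proteins. Most vomeronasal neurons express 1 or a few of them. The organ lies apart from the olfactory epithelium, whose neurons express odorant receptors instead.

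The reference gene table lists 359 symbols of these 2 families, 233 of type 1 and 126 of type 2. A further 57 probes carried several symbols with at least 1 vomeronasal receptor among them, and these were not used, because a probe shared by close relatives cannot be assigned to one. Probes with 1 symbol may also bind related sequences, so each value is that of a probe and possibly of more than 1 gene. Of the 6 members with 2 probes, 5 had differences of the same sign on both probes between night and day, and the exception was Vmn2r65, at 0.00087 on one and -0.059 on the other. As a check of the tissue, Omp, the marker of mature olfactory neurons, averaged 12.89 ± 0.13 on the log2 scale (SD, 12 pools), near the top of the array. The pool at CT56 had the lowest mean correlation with the other pools over all probes, 0.975, and the pool at CT32 the next lowest, 0.981. The counts at an unadjusted p and the medians less genes of equal level are also given below without this pair of pools. They are the only pools of their phase of the day (8 h). Leaving out both therefore removes that phase, so such values come from a changed comparison and do not test the quality of the 2 arrays.

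Nearly all members gave signals near the lower end of the array. Over the 12 pools the mean log2 signal of the Vmn1r genes ran between 3.88 and 6.88 with a median of 5.16, and that of the Vmn2r genes between 4.08 and 7.57 with a median of 5.11. All genes together had a median of 8.18. Of the 117 Vmn1r genes, 117 lay below the 25th percentile of all genes (7.10) and 77 below the 5th (5.43). Of the 46 Vmn2r genes, 44 lay below the 25th percentile and 32 below the 5th. The Tas2r genes, which encode bitter taste receptors, stood in the same region, with a median of 5.62 and 34 of 34 genes below the 25th percentile. The 1027 odorant receptor genes (Olfr) had a median of 7.13 and a highest mean of 11.26. Signals of different probes depend on probe sequence, so these positions describe the array and are no ranking of transcript amounts. No detection call was at hand, and whether a given member lay above background was not tested.

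A few members stood higher. Vmn2r54 had the highest mean of the family, 7.57 ± 0.28 (SD, 12 pools), followed by Vmn2r9 at 7.19 ± 0.20, and these were the 2 above the 25th percentile. Next came Vmn2r26 at 7.04 ± 0.10. This receptor is known for responses to peptides that bind major histocompatibility complex molecules. Among the type 1 genes the highest were Vmn1r86 at 6.88 ± 0.26, Vmn1r193 at 6.84 ± 0.20 and Vmn1r217 at 6.63 ± 0.09. These 6 genes differed in how much they moved. Vmn2r54 read 7.52, 7.80, 7.90, 7.38, 7.88 and 7.59 from CT12 to CT32, then 7.96, 7.54, 7.22, 7.08, 7.64 and 7.36 from CT36 to CT56. Its range of 0.88 was the widest of the Vmn2r genes, with the top at CT36 and the bottom at CT48. Vmn1r86 read 6.87, 7.19, 6.92, 6.76, 7.08 and 6.36 in the first cycle and 7.24, 6.97, 6.92, 6.54, 7.05 and 6.64 in the second. Its range was also 0.88, with a high value at CT36 and low values at CT32 and CT48. Vmn2r26 stayed between 6.88 and 7.26 over the same pools. Vmn1r58, the type 1 gene with the second widest range (0.74), read 4.17 at CT48 and 4.91 at CT16, and Vmn2r14, the type 2 gene with the second widest (0.81), read 6.31 at CT24 and 7.12 at CT32.

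**Figure D1:**
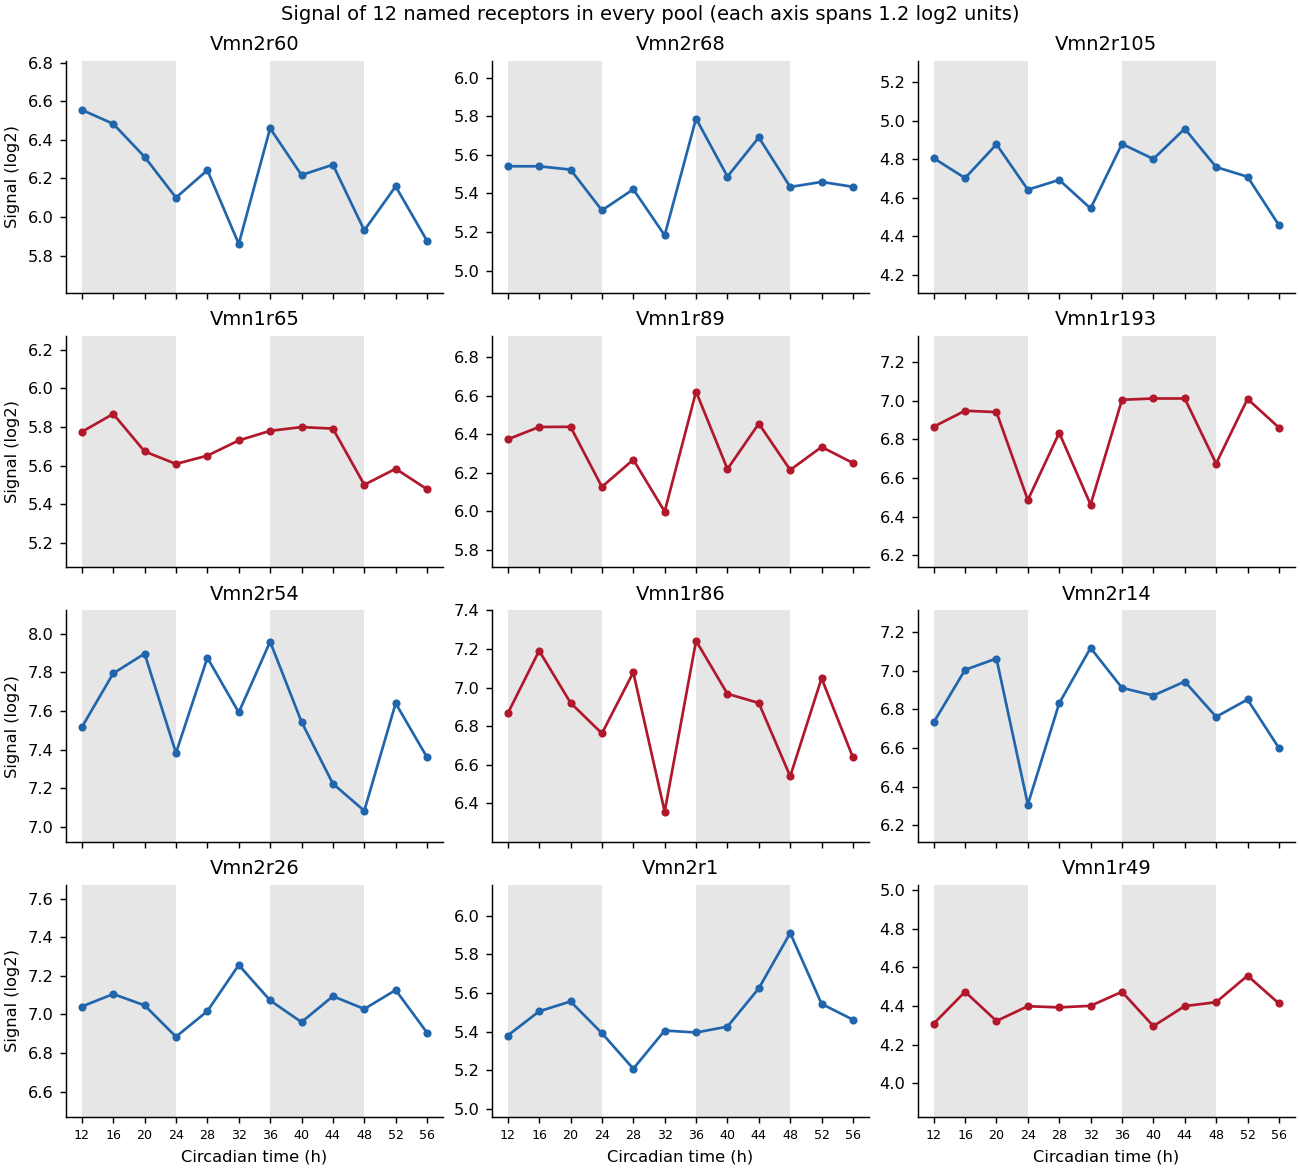
Log2 signal (vertical axes, each spanning 1.2 units) of 12 named receptors in the 12 pools against circadian time in hours; type 1 genes are red, type 2 genes blue, and grey bands mark the subjective night, CT12 to CT24 and CT36 to CT48. The top 6 panels hold the members with the smallest p between night and day, all below an unadjusted p of 0.05, while Vmn2r26 stays between 6.88 and 7.26.

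The spread of the members over the pools was set against that of the other genes whose mean lay within 0.1 log2 of their own, of which each member had between 26 and 921. The SD of a Vmn1r gene exceeded that of 39.3% of such genes in the median, and that of a Vmn2r gene exceeded that of 54.3%. Above the 95th percentile of their level stood 1 gene of each type, Vmn2r54 at 97.6% and Vmn1r86 at 95.4%. Vmn1r217, at 6.14%, was steadier than most probes of its level. These percentiles are descriptions, without a test.

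The first question was whether any member followed a 24 h rhythm. None of the 163 passed an adjusted p of 0.05 in limma, where 0.0251% of all genes did. At an unadjusted p under 0.05 there were 7 members (4 Vmn1r and 3 Vmn2r), a share of 4.29% against 3.54% of all genes. Other genes of equal mean level, averaged over members, reached 1.43%. Without CT32 and CT56 there were 5 such members, while the count over all genes was 2143 instead of 706. The amplitude, which is how far the fitted cosine's peak lies above its mean, ran from 0.0047 to 0.15 in Vmn1r genes (median 0.051) and from 0.01 to 0.20 in Vmn2r genes (median 0.068). Over all genes its median was 0.065, so the members' amplitudes lay near the background. The largest belonged to Vmn2r60, with 0.20 ± 0.07 (SE) and a fitted peak at CT 15.6 (limma, adjusted p = 0.996). Vmn1r65 peaked at CT 15.2 with an amplitude of 0.13 ± 0.04, and Vmn2r96 at CT 18.3 with 0.18 ± 0.06 (limma, adjusted p = 0.996 for both). Next by p were Vmn1r15, with 0.15 ± 0.05 and a peak at CT 19.3, Vmn1r235, with 0.15 ± 0.05 at CT 19.5, and Vmn2r105, with 0.14 ± 0.05 at CT 18.4. The fourth type 1 gene, Vmn1r174, named after its values were seen, had 0.15 ± 0.05 and peaked at CT 9.78. Without CT32 and CT56 the amplitude was 0.20 in Vmn2r60, 0.13 in Vmn1r65 and 0.15 in Vmn2r96, but 0.082 in Vmn1r15, 0.053 in Vmn1r235 and 0.075 in Vmn2r105. Fitted peaks fell in the subjective night for 71 of 117 Vmn1r and 30 of 46 Vmn2r genes. Each gene has a fitted peak whether or not it is rhythmic, so this is a description of the fits.

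Members of both types shared much of their pool to pool movement. Each value was taken as a deviation from the gene's own mean, and the median over members was followed along the pools. The median of the Vmn1r genes was -0.031, 0.057, 0.0078, -0.079, -0.0018 and -0.061 from CT12 to CT32, then 0.093, 0.0065, 0.0047, -0.048, 0.054 and 0.0037 from CT36 to CT56. The median of the Vmn2r genes was -0.034, 0.028, 0.041, -0.12, 0.0024 and -0.055 in the first cycle, and 0.056, 0.0090, 0.048, -0.051, 0.045 and -0.032 in the second. Both types were highest at CT36 and lowest at CT24. Of 117 Vmn1r genes, 38 had their highest value at CT36, while 31 had their lowest at CT32 and 23 at CT24. Of 46 Vmn2r genes, 12 had their highest value at CT36 and 15 their lowest at CT24.

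Other genes of equal mean level followed a similar course. For each member the mean deviation of the other genes of its level was taken per pool. The median of these means over the Vmn1r genes was -0.042, 0.034, 0.011, -0.086, 0.0027 and -0.025 in the first cycle and 0.066, -0.015, 0.031, -0.07, 0.074 and 0.027 in the second. The course matched to the Vmn2r genes ran from -0.087 at CT24 to 0.070 at CT52. Once the matched genes were subtracted pool by pool, the course of the Vmn1r genes spanned 0.083 log2 units instead of 0.17, with 0.033 at CT36 and -0.05 at CT32 as its ends. The course of the Vmn2r genes then spanned 0.10 instead of 0.18, with 0.031 at CT20 and -0.069 at CT56 as its ends. The pools that now stood lowest, CT32 and CT56, are those with the lowest mean correlation with the rest, and their part in the result was not tested. The bitter taste receptors, which are dim as well, were also lowest at CT24 (-0.11) and highest at CT36 (0.11). Odorant receptors had another course, with -0.067 at CT36 and 0.17 at CT56 as its ends. The 25th percentile of all probes was highest at CT36 (6.71), as the receptors were, and lowest at CT48 (6.57), with 6.59 at CT24. Its part in the result was not tested. These courses carry no test, since members are not replicates.

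**Figure D2:**
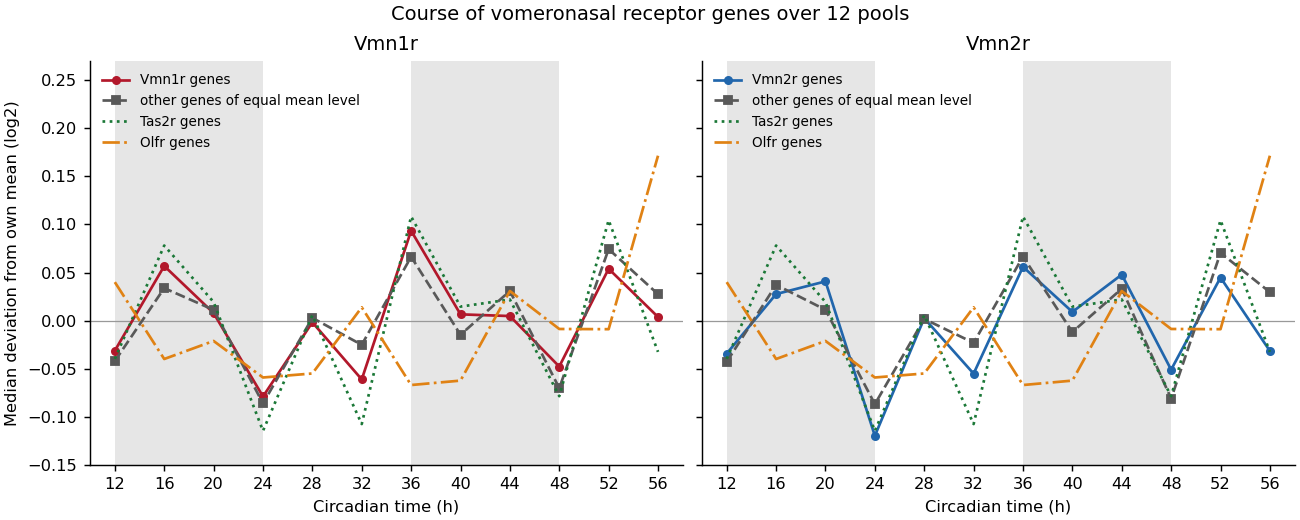
Median deviation of each gene group from the genes' own means (log2, vertical axis) against circadian time in hours, for 117 Vmn1r genes (left) and 46 Vmn2r genes (right), with other genes of equal mean level, 34 Tas2r genes and 1027 Olfr genes; grey bands mark the subjective night. For the genes of equal mean level the line is the median over members of the mean of their matched genes. Both receptor types and their matched genes are low at CT24 and high at CT36, while Olfr genes are highest at CT56.

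Subjective night was set against subjective day, 6 pools against 6. No member passed in limma, as no gene of 19937 did (0% called), and the smallest adjusted p of a member was 0.497. At an unadjusted p under 0.05 there were 25 members, where 9.86% of all genes were. Of the 25, 23 read higher at night and 2, Vmn1r4 and Vmn1r23, lower. Without the pools at CT32 and CT56 there were 12 such members and 473 such genes in all, instead of 1965. With array weights there were 46 members and 4763 of the 19937 genes. The 23 are 14.1% of the members, against 4.17% of all genes, 6.68% of the other genes below the 25th percentile, and 3.52% of the other genes of equal mean level, averaged over members. Members of a family share probe sequence and pool to pool movement, so these shares are no test. The median of night minus day was 0.048 in Vmn1r genes, of which 88 of 117 read higher, and 0.071 in Vmn2r genes, of which 37 of 46 did. Over all genes the median was -0.0044, with 48.5% above 0, and over the other genes below the 25th percentile it was 0.06, with 74.7% above 0. Of the other genes of equal mean level, averaged over members, 63.5% were above 0 for Vmn1r and 66.4% for Vmn2r. The Tas2r genes had a median of 0.079, with 29 of 34 above 0. Of the Tas2r genes 8.82% had an unadjusted p under 0.05, all of them higher at night. Less the matched genes, the median was 0.018 in Vmn1r genes, with 72 of 117 above 0, and 0.044 in Vmn2r genes, with 33 of 46 above 0. Without CT32 and CT56 these medians were 0.010 and 0.022. With median centring the shares above 0 were 63.2% for Vmn1r, 69.6% for Vmn2r and 40.9% for all genes.

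Vmn2r60 had the smallest p of the family. Its night pools ranged from 6.22 to 6.56 with a median of 6.39, and its day pools from 5.86 to 6.24 with a median of 6.02. The difference was 0.35 ± 0.08 (SE; limma, adjusted p = 0.497), and the groups overlapped at CT40 (6.22) and CT28 (6.24). Without CT32 and CT56 the difference was 0.27. Vmn2r68 ranged from 5.49 to 5.79 at night (median 5.54) and from 5.18 to 5.46 by day (median 5.43), so that all 6 night pools lay above all 6 day pools. Its difference was 0.22 ± 0.07 (limma, adjusted p = 0.497). Vmn1r217 was the other member whose night pools, 6.64 to 6.82 (median 6.69), lay above its day pools, 6.47 to 6.62 (median 6.57). Such a separation of night above day was seen in 2 of 163 members (1.23%) and in 0.0552% of all genes. In Vmn1r217 the difference was 0.14, where the other genes of its level had 0.069. Vmn2r105 averaged 4.84 ± 0.09 at night and 4.63 ± 0.11 by day (SD, 6 pools each), with a difference of 0.20 ± 0.06 (SE; limma, adjusted p = 0.497).

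Among the type 1 genes Vmn1r65 came first. It ranged from 5.67 to 5.87 at night (median 5.79) and from 5.48 to 5.73 by day (median 5.60), with a difference of 0.19 ± 0.06 (SE; limma, adjusted p = 0.497). The 2 groups overlapped at CT20 and CT32. Vmn1r89, a receptor known for sulfated estrogens, averaged 6.42 ± 0.13 at night and 6.20 ± 0.12 by day (SD, 6 pools each), a difference of 0.23 ± 0.07 (SE; limma, adjusted p = 0.497). Vmn1r193 averaged 6.96 ± 0.06 at night and 6.72 ± 0.22 by day, a difference of 0.24 ± 0.09 (SE; limma, adjusted p = 0.497). Its low day values came at CT24 (6.49), CT32 (6.46) and CT48 (6.68), while CT52 reached 7.01, as high as the night pools. The other genes of the level of Vmn1r193 had a night minus day of 0.059. In the opposite direction, Vmn1r23, named after its values were seen, averaged 3.81 ± 0.08 at night and 3.96 ± 0.14 by day (SD, 6 pools each). The genes of its level had a night minus day of -0.034. Vmn1r22, named for the same reason, was the member whose 6 night pools all lay below its 6 day pools, with means of 3.84 and 3.91. The highest night pool (3.8725) and the lowest day pool (3.8737) nearly touched, and such a separation of night below day was seen in 0.613% of members and 0.176% of all genes.

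**Figure D3:**
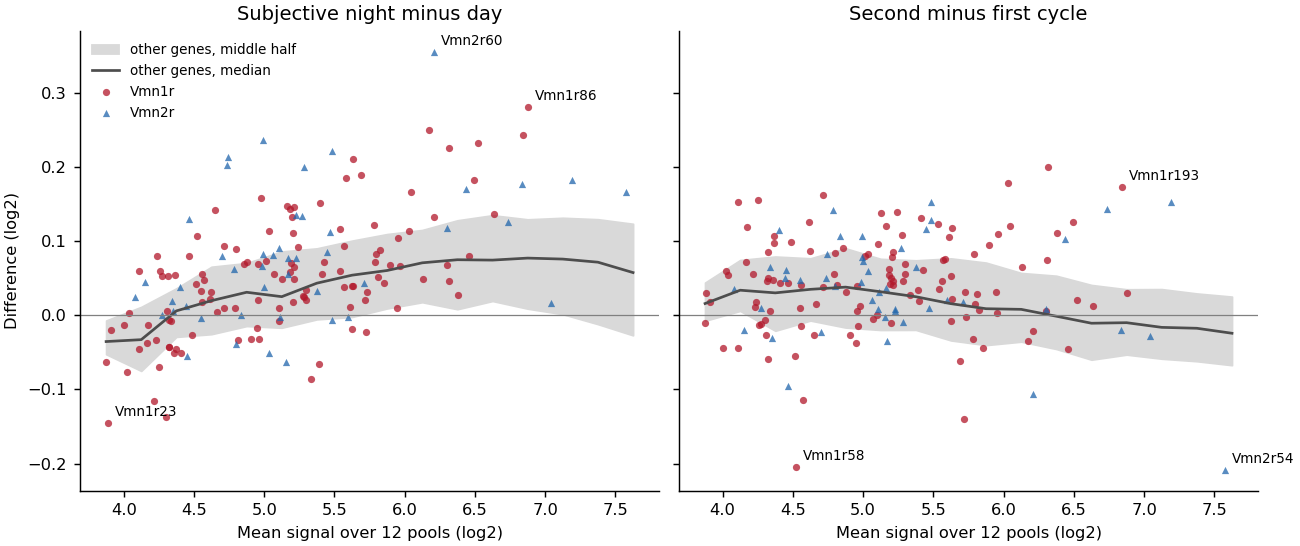
Difference in log2 signal (vertical axis) of each member against its mean log2 signal over the 12 pools (horizontal axis), for subjective night minus day (left) and the second minus the first cycle (right); red circles are Vmn1r and blue triangles Vmn2r genes, the line is the median of all other genes in steps of level and the grey band runs from their 25th to their 75th percentile. At night the median of other genes also lies above 0 over most of the members' range, and Vmn2r60 stands at 0.35.

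The stretches before the annotated starts of Vmn2r60 and Vmn1r65, the members with the smallest p of each type, are shown first, followed by those of Vmn1r193 and Vmn2r96, the 2 named members with a match to a D-box core. The sequences are from RefSeq, build GRCm38.p6, 250 bases each, 5′ to 3′ on the gene's strand, with the match in capitals.
Vmn2r60, upstream, chr7:42116221-42116470, plus strand: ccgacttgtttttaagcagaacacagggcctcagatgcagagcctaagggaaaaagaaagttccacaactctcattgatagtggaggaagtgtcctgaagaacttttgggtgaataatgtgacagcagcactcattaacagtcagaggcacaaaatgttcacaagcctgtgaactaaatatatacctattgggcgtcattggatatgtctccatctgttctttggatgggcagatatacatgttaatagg
Vmn1r65, upstream, chr7:6011011-6011260, minus strand: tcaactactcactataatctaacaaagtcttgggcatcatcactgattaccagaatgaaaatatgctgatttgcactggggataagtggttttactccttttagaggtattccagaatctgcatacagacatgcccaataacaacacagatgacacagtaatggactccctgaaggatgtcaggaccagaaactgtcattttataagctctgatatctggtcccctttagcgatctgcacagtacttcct
Vmn1r193, upstream, chr13:22219821-22220070, minus strand: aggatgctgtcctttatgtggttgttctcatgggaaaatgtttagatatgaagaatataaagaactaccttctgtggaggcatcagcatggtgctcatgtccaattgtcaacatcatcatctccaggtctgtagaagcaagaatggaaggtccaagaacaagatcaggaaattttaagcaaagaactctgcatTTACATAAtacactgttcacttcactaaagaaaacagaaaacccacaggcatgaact
Vmn2r96, upstream, chr17:18581477-18581726, plus strand: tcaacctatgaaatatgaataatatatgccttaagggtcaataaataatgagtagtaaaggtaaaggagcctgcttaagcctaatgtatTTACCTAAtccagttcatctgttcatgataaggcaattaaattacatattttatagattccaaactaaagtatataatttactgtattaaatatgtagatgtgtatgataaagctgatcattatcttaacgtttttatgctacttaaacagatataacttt
The D-box is bound by Dbp and its relatives, factors driven by the clock, and was searched as TTANGTAA on both strands. It occurred in 4 of 103 Vmn1r windows (3.88%) and 1 of 43 Vmn2r windows (2.33%), against 2.06% of all windows and 4.91% of the other windows that an ATG follows. These were the windows of Vmn1r73, Vmn1r171, Vmn1r193, Vmn1r234 and Vmn2r96. In Vmn1r193 the match TTACATAA began 57 bases before the start and in Vmn2r96 the match TTACCTAA 161 bases before it. The E-box bound by the activators CLOCK and BMAL1, searched as CACGTG, had no match in 146 member windows, against 6.02% of all windows and 2.68% of the other windows that an ATG follows. The half-site AGGTCA, bound by nuclear receptors of the clock such as REV-ERB and ROR, occurred in 9 Vmn1r windows (8.74%) and 1 Vmn2r window, that of Vmn2r109 (2.33%), against 14.0% of all windows and 12.5% of the other windows that an ATG follows. The table held a window for 146 of the 163 members. In 121 of the 146 member windows an ATG followed at once, as it did for Vmn2r60 and Vmn1r193 but not for Vmn1r65 and Vmn2r96. Such gene models begin at the start codon, so their windows need not hold the promoter. The median GC content was 36.4% in the members' windows and 52.4% in all, and a match of a short motif depends on it.

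Type 1 genes fall into clades, groups of related sequence that carry a letter in the older symbols such as V1ra1. Of the 117 genes 6 had no such letter and 1 had several. The 27 genes of clade c, the largest here, had a median night minus day of 0.0094, with 14 of 27 above 0. The 17 genes of clade h had 0.018, with 12 of 17 above 0. The 11 genes of clade g had 0.087 with 11 of 11 above 0, and 4 of them, Vmn1r75, Vmn1r76, Vmn1r78 and Vmn1r84, had an unadjusted p under 0.05, where 9.86% of all genes did. Such a p, in either direction, was found for 3 of 9 genes in clade i, 2 of 27 in c and 2 of 17 in h. It was found for 1 of 11 in d, 1 of 8 in a, 1 of 2 in j, and none of those in b, e, f and k. Of the 6 genes without a letter 2 had it. The 2 of clade c were Vmn1r4 and Vmn1r23, which read lower at night. Clade d, with 10 of 11 above 0, had 0.070, clade e, with 9 of 13, had 0.035, and clade i, with 8 of 9, had 0.070. Clades a and b had 0.040 and 0.060, with 5 of 8 and 5 of 6 above 0, and clade f had 0.080 with 5 of 5. Clades differed in level too, with a median signal of 4.46 in clade c, 4.55 in clade h and 5.58 in clade g. Less the matched genes the medians were -0.0039 in clade c, 0.013 in clade h and 0.035 in clade g, with 12 of 27, 10 of 17 and 7 of 11 above 0. In clade d the median was 0.047 with 9 of 11 above 0, and in clade i 0.033 with 6 of 9. Clades a, b, e and f had 0.016, 0.0080, 0.0068 and 0.020, with 5 of 8, 3 of 6, 8 of 13 and 5 of 5 above 0. No difference between clades was tested.

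**Figure D4:**
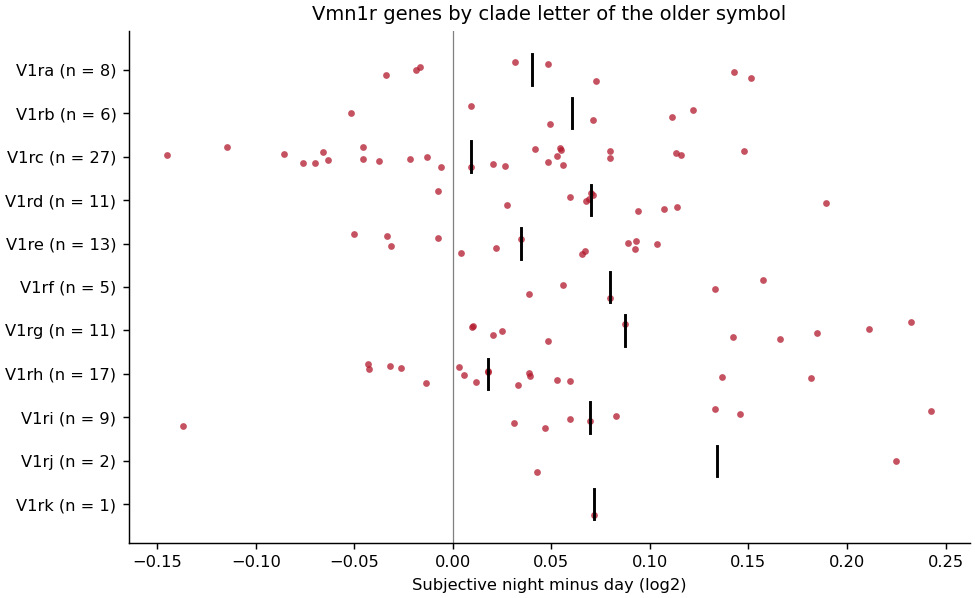
Subjective night minus day in log2 units (horizontal axis) of each Vmn1r gene, by the clade letter in its older symbol (rows, with the number of genes); points are genes, black bars the clade medians. The 27 genes of clade V1rc lie on both sides of 0 and the 11 of V1rg on one.

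The second cycle was set against the first, with the phase of the day as a factor, which asks whether levels shift with time in darkness. Whether the arrays of the 2 cycles were run apart is not stated, so a batch and the cycle cannot be told apart. No member passed in limma (0% of all genes called), and the smallest adjusted p of a member was 0.304. There were 11 members with an unadjusted p under 0.05, of which 10 read higher in the second cycle and 1, Vmn1r224, lower. Over all genes 13.2% had such a p. Without CT32 and CT56 there were 14 such members and 1416 such genes in all, instead of 2625. The 10 are 6.13% of the members, against 4.22% of all genes, 4.31% of the other genes below the 25th percentile and 5.96% of the genes of equal mean level. The median difference was 0.042 in Vmn1r genes, of which 90 of 117 read higher, and 0.038 in Vmn2r genes, of which 35 of 46 did, while the median over all genes was -0.026, with 38.3% above 0. Of the other genes below the 25th percentile 51.8% were above 0. Of those of equal mean level, averaged over members, 63.0% were above 0 for Vmn1r and 62.1% for Vmn2r. Less the matched genes the medians were 0.0078 and -0.00038, with 68 of 117 and 22 of 46 above 0, and without CT32 and CT56 they were -0.0017 and 0.024. Quantile normalization turned the direction, with medians of -0.010 and -0.021 and 46 of 117 and 17 of 46 above 0, and with cyclic loess 74 of 117 and 25 of 46 were above 0.

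Vmn1r227 had the smallest p of this comparison. It ranged from 4.64 to 4.87 in the second cycle (median 4.85) and from 4.53 to 4.75 in the first (median 4.63), with a difference of 0.16 ± 0.05 (SE; limma, adjusted p = 0.304). Vmn1r5 followed, with 4.22 to 4.45 in the second cycle and 4.11 to 4.22 in the first, and a difference of 0.16 ± 0.05 (SE; limma, adjusted p = 0.304). Both sets of pools met near 4.22 at CT40 and CT28. Vmn1r193 differed by 0.17 ± 0.06 and Vmn2r122 by 0.14 ± 0.05, Vmn2r93 by 0.14 ± 0.06 and Vmn2r68 by 0.13 ± 0.06 (limma, adjusted p between 0.304 and 0.371). The largest differences in the other direction were those of Vmn2r54, at -0.21 ± 0.11, and Vmn1r58, at -0.20 ± 0.10, with adjusted p of 0.429 and 0.393 in limma.

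Receptors with a known type of ligand were looked at whatever their values, and so were Vmn2r1 to Vmn2r7, the broadly expressed family C of type 2. Of these 15 names 6 had a probe of their own. Vmn2r1 averaged 5.48 ± 0.17 (SD, 12 pools), with 5.91 at CT48 above the other 11 pools, and its night minus day was -0.0058 ± 0.09 (SE). Vmn2r65, linked to the recognition of pups, averaged 4.84 ± 0.10 and lay between 4.67 and 5.01. Vmn1r49, a receptor for the urinary ketone 2-heptanone, averaged 4.40 ± 0.07 and lay between 4.30 and 4.56, and its night minus day was -0.051 ± 0.06. Vmn1r85, like Vmn1r89 of clade j, averaged 5.85 ± 0.20, with 5.50 at CT48 and 6.20 at CT52 as its ends and a night minus day of 0.043 ± 0.11. None of the 6, which include Vmn2r26 and Vmn1r89, passed in a comparison (limma).

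Genes listed for vomeronasal neurons were given beside the receptors, 10 of 11 with a probe of their own and the channel gene Trpc2 without. Whether the signal of these genes came from vomeronasal neurons was not tested. The G protein genes Gnai2 and Gnao1 averaged 10.53 and 11.67, but both are also active in other neurons. Gng8, a G protein subunit of vomeronasal and immature olfactory neurons, averaged 9.02, and Calr4, a chaperone known from vomeronasal neurons, 5.66. Between night and day 0 of the 10 passed in limma, with 0 below an unadjusted p of 0.05, where 9.86% of all genes were, and 3 read higher at night. The list mean lay between 8.83 and 8.92 at night and between 8.82 and 8.98 by day. Between the cycles 8 of the 10 read lower in the second, where most receptors read higher, and 0 passed in limma, with 3 below an unadjusted p of 0.05. Of all genes 38.3% read higher in the second cycle, and 13.2% had an unadjusted p under 0.05 in either direction. Gnao1 ranged from 11.46 to 11.65 in the second cycle (median 11.60) and from 11.72 to 11.81 in the first (median 11.75). Its difference was -0.18 ± 0.05 (SE; limma, adjusted p = 0.304). Gng8 differed by -0.16 ± 0.06 and Omp by -0.20 ± 0.05 (limma, adjusted p between 0.304 and 0.325). Of 11 olfactory neuron markers 1 read higher in the second cycle. In bulk tissue fewer cells of a type and less RNA per cell cannot be told apart. Markers of respiratory ciliated cells read lower at night in 6 of 6 cases, with list means between 8.50 and 9.18 at night and between 8.94 and 9.55 by day, while the receptors read higher, and their part in the result was not tested. Brain markers read higher at night in 5 of 5 cases, with list means of 8.15 to 8.52 at night and 7.98 to 8.35 by day. Their differences were uneven, with 0.00043 in Snap25, 0.024 in Mbp, 0.15 in Slc17a7, 0.19 in Gfap and 0.25 in Gad1. Gfap and Slc17a7 averaged 6.90 and 6.97, below the 25th percentile, where 74.7% of the other genes read higher at night. Gland markers read higher at night in 2 of 6 cases, with 7.87 to 11.36 at night and 8.83 to 10.55 by day. The part of brain and gland markers in the result was not tested.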

How the data were processed

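The deposited table holds log2 intensities, 1 value per probe and pool, as read from their range. Per the submitters' processing notes the authors used affy. Background correction and normalization have no description in the sources used here. RNA was extracted with Trizol and amplified by random priming, per the labels' protocols. Of 34760 probes, 21640 had 1 symbol, 1321 several, and 11799 were not listed. By Entrez ID 21553 matched RefSeq genes of GRCm38.p6, and 0 symbols changed. The number of arrays limits the precision.

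The values were fitted in limma 3.58.1 (R 4.3.3) over all 19937 genes with Benjamini-Hochberg adjustment. The 24 h fit used a cosine and a sine (9 residual degrees of freedom), night against day 2 groups of 6 pools, and the cycles a phase factor. Fits were tested on simulated data. Figures used matplotlib 3.10.9, numpy 2.4.6, pandas 2.3.3 and Python 3.11.15. Pools are the replicates, so p-values measure the spread between pools. Alternatives were quantile normalization, median centring, cyclic loess, a filter on dim genes, the mean of probes, another variance prior, array weights, a cycle block, phase or cosine terms, other level windows and leaving out pools.

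Members and lists were chosen with earlier results of these data known. The named genes are, per type, the 3 with the smallest p of each comparison, the 3 with the highest mean and the 2 with the widest range, plus family C and receptors with known ligands. Vmn1r4, Vmn1r22, Vmn1r23, Vmn1r75, Vmn1r76, Vmn1r78, Vmn1r84, Vmn1r174, Vmn1r224 and the other genes named for a motif match were named after their values were seen.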

Additional observations from a re-analysis of the deposited data

Results flagged for a closer look

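The medians of both types and the 24 named members were searched for a pool that lay apart from the other pools of its 6, within night, day and each cycle. Of 104 such groups 4 had a gap over the range above Dixon's 95% value of 0.625, where chance gives about 5.2. Vmn1r49 was high at CT52 among the day pools (0.837), at 4.56. Vmn1r235 was low at CT12 among the night pools (0.762), at 4.84. Vmn2r93 was high at CT36 among the night pools (0.658), at 7.08. Vmn1r15 was low at CT32 among the pools of the first cycle (0.651), at 4.93.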

How the results depend on the processing

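No member passed an adjusted p of 0.05 in any of the 3 comparisons under any alternative run. The median night minus day stayed above 0 under all alternatives, between 0.026 and 0.071 in Vmn1r genes and between 0.047 and 0.11 in Vmn2r genes. The median of the second minus the first cycle was -0.0103 in Vmn1r and -0.0212 in Vmn2r genes with quantile normalization, and 0.011 and 0.0073 with cyclic loess. Only 2 members remained when genes below the 25th percentile were left out, so no median was taken there. The 25 members at an unadjusted p under 0.05 between night and day were 46 with array weights and 12 without CT32 and CT56, and between 15 and 29 when 1 pool was left out, with 15 without CT36. The count over all 19937 genes moved too, from 1965 to 4763 with array weights, 473 without CT32 and CT56, and 888 without CT36. The 7 of the 24 h fit were 3 with quantile normalization, 11 with phase as a factor, and between 2 and 12 when 1 pool was left out, with 2 without CT32, CT40 or CT56 and 12 without CT52. Among all genes the 706 of that fit were 813 with quantile normalization and 3361 with phase as a factor. They were 693 without CT32, 492 without CT40, 1141 without CT56 and 1221 without CT52. The 11 between cycles were between 6 with a cosine for phase and 21 with array weights, and 18 without CT16 or CT40. Of all genes 2625 had such a p between cycles, 1947 with the cosine, 4231 with array weights and 2117 without CT16 or CT40. The comparison of cycles pairs pools of the same phase through its phase factor. With the cycle as a block, 25 members had such a p between night and day and 7 in the 24 h fit, as without it. Among all genes these counts were 2036 and 788. Leaving out CT32 and CT56 together was added after the data were seen. Less the genes of equal level, the median night minus day was 0.010 in Vmn1r genes without CT32, 0.032 without CT48, and 0.025 in Vmn2r genes without CT56. Dim signals limit all values here.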

Other observations

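The class I molecules H2-M1, H2-M9, H2-M10.1 to H2-M10.6 and H2-M11, which are known to be expressed with type 2 receptors in the vomeronasal organ, were measured in 9 of 9 cases. None passed in limma in the 24 h fit, and 2 had an unadjusted p under 0.05, where 3.54% of all genes did. H2-M10.3 read 9.37, 10.16, 9.62, 9.87, 9.07 and 9.61 from CT12 to CT32, then 9.57, 10.04, 9.95, 9.95, 9.10 and 9.19 from CT36 to CT56. Both cycles were high at CT16 and CT40 and low at CT28 and CT52. The fitted amplitude was 0.41 ± 0.09 (SE) with a peak at CT 18.4 (limma, adjusted p = 0.61). The fit for H2-M10.6 put the top at CT 21.8, an amplitude of 0.31 ± 0.08 (SE), with a limma adjusted p of 0.946. This gene was highest at CT24 in the first cycle (7.34) and at CT48 in the second (7.73). Probes of close class I relatives can share signal, and the remaining 7 genes of the list had unadjusted p above 0.05.

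The formyl peptide receptors Fpr-rs3, Fpr-rs4, Fpr-rs6 and Fpr-rs7, which are also known from vomeronasal neurons, averaged 7.19, 5.50, 4.76 and 4.69. None of the 4 measured passed in limma, and 3 of the 4 read higher at night. So did most of the vomeronasal receptors and 74.7% of the other genes below the 25th percentile, though Fpr-rs3 lies above that level (7.10). Of the other genes of equal mean level to the vomeronasal receptors 64.3% did, averaged over members. Whether the likeness is particular to these receptors was not tested.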
